A study of Mus musculus with 6 samples.

Results

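The 10 genes described here belong to the machinery of early T cell development: Rag1, Rag2 and Dntt of receptor gene rearrangement, Ptcra of the pre-T cell receptor (pre-TCR), the receptors Notch1 and Notch3 with their target genes Hes1 and Dtx1, the surface protein gene Cd24a and the transcription factor gene Bcl11b. They were listed by symbol for these roles and make up 10 of the 32227 genes in the count tables. The tables of all 6 libraries name each of the 10, but Rag1 and Rag2 had UMIs in the thymic libraries alone.

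The study sequenced single CD8+ T cells of the thymus, the spleen and B16-OVA melanoma tumors from control mice and from mice that lack Pdcd1, the gene of the inhibitory receptor PD-1, in CD8 T cells. Control mice carried Pdcd1fl/fl, alleles flanked by loxP sites, without Cre. Pdcd1 cKO mice carried the same alleles with a Cre driven by the E8I element of the CD8 locus, which acts after positive selection, so that less mature thymocytes of these mice keep the gene. All mice were adults of more than 8 weeks on a C57BL/6 background. Each of the 6 combinations of genotype and tissue had 1 library. A thymic or splenic library came from 1 mouse without a tumor, and a tumor library pooled 3 mice on day 12 after injection of the melanoma cells. Thymic and splenic cells were enriched with a CD8a+ T cell isolation kit and tumor cells with CD8 microbeads, and RNA molecules were counted as unique molecular identifiers (UMIs) with the PIPseq v3 kit. With 1 library per group there were no replicates, no test was made, and all intervals, given in parentheses, are 95% intervals that cover counting error only.

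After filtering, the thymic libraries held 1067 cells with a median of 4361 UMIs (library labelled Pdcd1fl/fl) and 2635 cells with a median of 5417 UMIs (library labelled Pdcd1 cKO). The splenic libraries held 1478 and 4928 cells with medians of 1320.5 and 1615 UMIs, and the tumor libraries 456 and 561 cells with medians of 13809.5 and 9510 UMIs, in the same order of labels. Summed over cells, the thymic libraries gave 6389966 and 19143524 UMIs, the splenic libraries 2220981 and 8923997 and the tumor libraries 9380835 and 7924590. The filter kept 21.3% of the barcodes of the splenic library labelled Pdcd1fl/fl (1478 of 6929, with a median of 728 UMIs before filtering) but at least 98.5% in each other library. This splenic reference stands apart. Without the filter 7 of 9 members were higher in the thymus, as with it, where 27.2% of all genes were higher. The median log2 ratio of all genes was 0.41 without and 0.42 with the filter, and the share without it is not given here. No barcode was shared between cells of any pair of libraries. No cell was removed as a doublet.

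Pdcd1 itself, on the minus strand of GRCm39 at chr1:93966027-93980312, went against the labels in thymus and spleen. In the thymus it had 12 UMIs, or 1.88 (0.970 to 3.28) in counts-per-million units (CPM), under the label Pdcd1fl/fl and 131 UMIs, or 6.84 CPM (5.72 to 8.12), under the label Pdcd1 cKO. The splenic libraries had 1 UMI (0.450 CPM) and 104 UMIs (11.7 CPM, 9.52 to 14.1), and the tumor libraries 717 UMIs (76.4 CPM) and 808 UMIs (102 CPM). Pdcd1 RNA was therefore higher under the label of the deletion in all 3 tissues. The counts are summed over all exons of a gene, so a part of RNA from deleted alleles was not tested, and every direction between genotypes given here rests on the labels as deposited.

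Developing T cells enter the thymus without CD4 and CD8 and first rearrange the gene of the T cell receptor beta chain. RAG1 and RAG2 together form the recombinase that cuts the gene segments, the enzyme made from Dntt (TdT) adds bases without a template where segments are joined, and the protein of Ptcra pairs with a new beta chain to form the pre-TCR, whose signal lets the cell divide, express CD4 and CD8 and go on to rearrange the alpha chain. Notch signaling from the thymic stroma drives commitment to the T lineage before and around this checkpoint, and cells that mature to CD8 T cells have closed the recombinase genes.

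The labelled cell type was checked by RNA of Cd8a and Cd8b1, the genes of both CD8 chains, which served to split every library. No UMI of either gene was read in 478 thymic cells (44.8%, 41.8 to 47.8) of the library labelled Pdcd1fl/fl and in 882 (33.5%, 31.7 to 35.3) of the library labelled Pdcd1 cKO. In the spleen, with fewer UMIs per cell, 41.6% (39.1 to 44.2) and 21.2% (20.03 to 22.33) of the cells had none. A cell without a CD8 UMI may still hold CD8 RNA that was not read, so both groups are named by the counts: cells without CD8 RNA (0 UMIs) and cells with CD8 RNA (at least 1 UMI). Median UMIs of thymic cells without and with CD8 RNA were 4394.5 and 4353 under the label Pdcd1fl/fl and 5251 and 5486 under the label Pdcd1 cKO.

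Cd4, a defining gene of double-positive thymocytes, was near 0, with 5 UMIs (1.37 CPM) and 43 UMIs (3.40 CPM) in thymic cells with CD8 RNA, and these cells are not called double-positive. All 5 genes of the gamma delta T cell list were read in both groups of thymic cells. Their summed level was 593 CPM without and 358 CPM with CD8 RNA under the label Pdcd1fl/fl, and 746 and 284 CPM under the label Pdcd1 cKO. Among them Trdc, the constant region of the delta chain, led with 206 CPM in the first of these groups, and Trgc2 of the gamma chain led with 253 CPM in the third. In splenic cells with CD8 RNA the same list summed to 13.8 and 53.9 CPM. Of the B cell precursor list, Rag1 made up 103 of 107 UMIs and 258 of 291 UMIs in thymic cells without CD8 RNA, and Igll1 and Vpreb2 were at 0 in the library labelled Pdcd1fl/fl. The fibroblast list, led by Dcn, moved with the thymic libraries too, with 46.8 CPM (3 of 4 genes, Pdgfra at 0) and 67.6 CPM (4 of 4) in cells without and with CD8 RNA under the label Pdcd1fl/fl against 32.6 and 11.5 CPM (4 of 4 in each) under the label Pdcd1 cKO. Of thymic epithelium, led by Epcam, the list summed to 15.4 CPM (2 of 5 genes, Krt5, Foxn1 and Psmb11 at 0) without and 7.11 CPM (4 of 5, Krt5 at 0) with CD8 RNA under the label Pdcd1fl/fl, and to 30.1 CPM (3 of 5, Krt5 and Foxn1 at 0) and 8.53 CPM (5 of 5) under the label Pdcd1 cKO. The NK list, led by Klrk1, had 6.22 and 12.6 CPM (2 of 3 genes, Ncr1 at 0 in each) against 29.6 and 21.1 CPM (3 of 3 in each) in these groups. In splenic cells with CD8 RNA the granulocyte progenitor list was at 0 (all 4 genes) under the label Pdcd1fl/fl and at 83.6 CPM (4 of 4, led by Mpo) under the label Pdcd1 cKO. The erythroid list had 0 UMIs without and 0.274 CPM (1 UMI) with CD8 RNA in thymic cells under the label Pdcd1fl/fl. Under the label Pdcd1 cKO it had 5.86 and 5.69 CPM (4 of 4 genes in each, led by Hbb-bs). In splenic cells with CD8 RNA it had 0.724 CPM (1 UMI) under the former label and 17.9 CPM under the latter. The part of any of these cells in the results was not tested.

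On GRCm39 with the GENCODE M39 annotation, Rag1 (ENSMUSG00000061311) lies at chr2:101468603-101479877 on the minus strand and Rag2 (ENSMUSG00000032864) at chr2:101455063-101462874 on the plus strand, 5728 bases apart and pointing toward each other. Both lie within the span of Iftap, which shares the strand of Rag1 and is antisense to Rag2. Dntt (ENSMUSG00000025014) lies at chr19:41017714-41047964, with C330026H20Rik, Gm59164 and Opalin on the other strand, and Ptcra (ENSMUSG00000036858) at chr17:47066578-47074902 with no overlapping gene. Notch1 (ENSMUSG00000026923, chr2:26347915-26406675) overlaps Mir6996 on its own strand and 0610009E02Rik and Gm13568 on the other. Notch3 (ENSMUSG00000038146, chr17:32339794-32385893), Hes1 (ENSMUSG00000022528, chr16:29882134-29886643), Dtx1 (ENSMUSG00000029603, chr5:120818248-120850879) and Cd24a (ENSMUSG00000047139, chr10:43454280-43460264) have Gm17276, Gm60905, Rasal1 and Mtres1, respectively, on the other strand. Bcl11b (ENSMUSG00000048251, chr12:107876656-107970417) overlaps no gene. Whether the counting used strand is not given in the sources used here, so reads of these overlapping genes cannot be told apart where they coincide.

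Splenic CD8 T cells are past rearrangement. Set against them, thymic cells with CD8 RNA held far more RNA of Rag1, Dntt, Ptcra, Cd24a, Notch3 and Hes1, while Bcl11b, Notch1 and Dtx1 were present in both tissues. Of 9 members with at least 50 UMIs in both tissues together, 7 were higher in the thymus by a log2 ratio of at least 1 under the label Pdcd1fl/fl, where 27.2% of all 7981 genes measured were higher and 6.95% lower by that much. Under the label Pdcd1 cKO it was 6 of 9, against 12.3% higher and 9.62% lower among 11416 genes. No member was lower by that much. Rag2 had too few UMIs to be counted. Under both labels Rag1, Dntt, Ptcra, Cd24a, Notch3 and Hes1 reached the minimum of 50 UMIs through the thymus alone. The thymic groups also held more UMIs (3654928 and 12663092) than the splenic ones (1380788 and 7324233). These counts are therefore a description and carry no test.

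Rag1, the catalytic chain of the recombinase, had 122 UMIs (33.4 CPM, 27.7 to 39.9) and 279 UMIs (22.0 CPM, 19.5 to 24.8) in thymic cells with CD8 RNA, and 0 UMIs in splenic cells with CD8 RNA of both labels. With the splenic group set to a floor of 3 UMIs, its thymic level was 15.4-fold and 53.8-fold higher. The exact conditional intervals, taken at the splenic count of 0, had lower limits at log2 ratios of 3.62 and 5.44, below these floor values. Rag2, its partner, had only 2 and 16 UMIs (0.547 and 1.26 CPM) in the same thymic cells and 0 in the spleen. These UMIs of Rag2 were too few for a ratio. Dntt had 423 CPM (402 to 445) and 278 CPM (269 to 287) in the thymus and 1.45 CPM (2 UMIs) and 2.73 CPM (20 UMIs) in the spleen. Its log2 ratios were 8.19 (6.33 to 11.24) and 6.67 (6.04 to 7.38). Of these recombination genes only Dntt was read in the spleen at all, and 8 of its 20 UMIs there came from 1 cell.

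Ptcra had 30.1 CPM (24.7 to 36.3) and 13.5 CPM (11.6 to 15.7) in thymic cells with CD8 RNA against 0.724 CPM (1 UMI) and 1.502 CPM (11 UMIs, 7 of them in 1 cell) in splenic ones, log2 ratios of 5.38 (2.87 to 10.69) and 3.17 (2.29 to 4.20). Cd24a, which encodes a surface protein that is high on immature thymocytes and lost on maturation, had 238 and 194 CPM in the thymus and 1.45 and 3.96 CPM in the spleen, log2 ratios of 7.36 (5.50 to 10.41) and 5.61 (5.09 to 6.19). Both genes were high in the thymic libraries and close to absent in the splenic ones.

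The Notch receptors differed in their tissue pattern. Notch3, whose RNA is known to be strong in immature thymocytes, had 20.8 CPM (16.4 to 26.0) and 16.0 CPM (13.9 to 18.4) in the thymus and 0.724 CPM (1 UMI) and 0.683 CPM (5 UMIs) in the spleen. Its log2 ratios were 4.84 (2.32 to 10.17) and 4.55 (3.31 to 6.19). Notch1, the receptor needed for T lineage commitment, had 146 CPM (134 to 159) and 105 CPM (99.5 to 110.9) in the thymus and still 45.6 CPM (35.1 to 58.4) and 63.6 CPM (58.0 to 69.7) in the spleen. Its log2 ratios were 1.68 (1.30 to 2.08) and 0.72 (0.57 to 0.88), past 1 under the label Pdcd1fl/fl only, and the difference between both ratios was not tested.

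The targets also parted. Hes1, a repressor that Notch activates directly, had 368 CPM (348 to 388) and 226 CPM (217 to 234) in thymic cells with CD8 RNA and 1.45 CPM (2 UMIs) and 3.41 CPM (25 UMIs) in splenic ones. Its log2 ratios were 7.99 (6.13 to 11.04) and 6.05 (5.48 to 6.68). Dtx1, which encodes the ubiquitin ligase Deltex-1 and is another Notch target, had 25.5 CPM (20.5 to 31.2) and 24.7 CPM (22.1 to 27.6) in the thymus and 33.3 CPM (24.4 to 44.4) and 48.9 CPM (44.0 to 54.2) in the spleen. Its log2 ratios were -0.39 (-0.91 to 0.15) and -0.98 (-1.21 to -0.76). Bcl11b, a factor that seals T cell identity and is kept by mature T cells, had 120 CPM (109 to 132) and 108 CPM (102 to 114) in the thymus and 92.0 CPM (76.7 to 109.4) and 95.9 CPM (88.9 to 103.2) in the spleen. Its ratios were 0.38 (0.09 to 0.68) and 0.17 (0.04 to 0.31). Bcl11b was close to equal between both tissues under either label, and Dtx1 alone was lower in the thymus.

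Across all genes the median log2 ratio of thymus over spleen was 0.42 under the label Pdcd1fl/fl and 0.02 under the label Pdcd1 cKO. Scaling by the median of ratios in place of the total shifted the first comparison by 0.42, which turned Bcl11b to -0.04 there, and Dtx1 turned to 0.42 with cells thinned to 1000 UMIs, where it was under the minimum of 50 UMIs. In such ratios thinning came before the split by CD8 RNA, so that fewer cells counted as having CD8 RNA. Fewer members then reached 50 UMIs, and 3 of 4 measured and 3 of 6 measured were past 1, where 14.2% and 5.02% of all genes measured were. With the splenic library of the other label, chosen after seeing the data because Pdcd1 went against the labels, 7 of 9 members were higher in each comparison, where 18.1% and 19.7% of all genes were higher. Dtx1 under the label Pdcd1 cKO passed -1 by a little with cells of at least 2 CD8 UMIs (-1.05) and with the median of ratios (-1.01), and it was -0.43 against the splenic library of the other label.

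**Figure D1:**
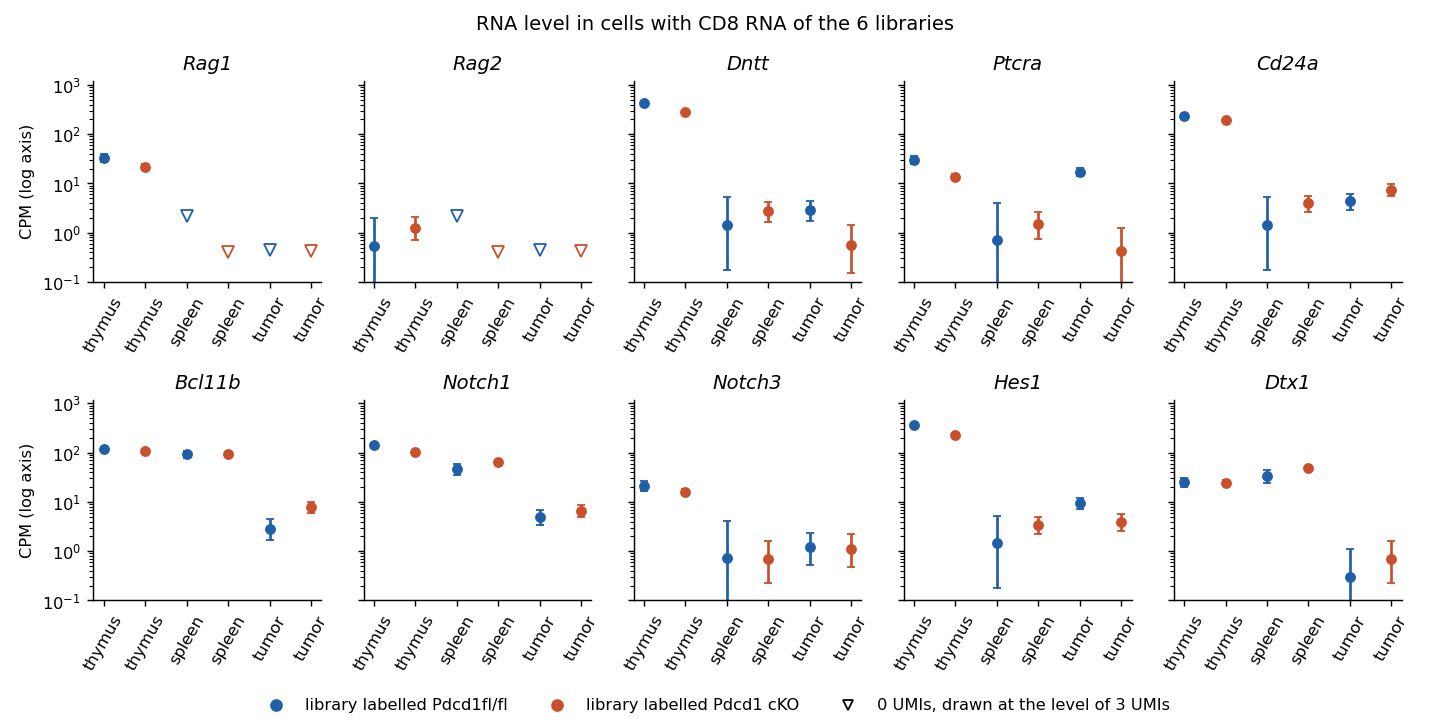
RNA level of each of the 10 genes in CPM (log axis) in cells with CD8 RNA of the 6 libraries, with exact Poisson 95% intervals (counting error only, 1 library per point); open triangles mark 0 UMIs, drawn at the level of 3 UMIs. Dntt runs from 423 and 278 CPM in the thymus to 1.45 and 2.73 CPM in the spleen, whereas Bcl11b keeps 92.0 and 95.9 CPM in the spleen and has 2.85 and 7.77 CPM in the tumors.

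In cells with CD8 RNA of the tumors 9 of the 10 genes, all but Ptcra, were below 10 CPM in each library. Rag1 and Rag2 were at 0 UMIs in both tumor libraries, with upper bounds of 0.553 and 0.521 CPM. Dntt had 2.85 and 0.565 CPM, Cd24a 4.35 and 7.35 CPM, Notch3 1.20 and 1.13 CPM, Hes1 9.45 and 3.96 CPM and Dtx1 0.300 and 0.707 CPM, in the order Pdcd1fl/fl and Pdcd1 cKO of the labels. The genes that splenic cells kept were low here as well, with Bcl11b at 2.85 CPM (1.72 to 4.45) and 7.77 CPM (5.86 to 10.12) and Notch1 at 4.95 CPM (3.41 to 6.95) and 6.64 CPM (4.88 to 8.83). Melanoma RNA was read in these same cells, with all 5 genes of the melanoma list summing to 6930 and 3949 CPM, led by Dct (2610 CPM) and Pmel (1410.3 CPM). The fibroblast list (4 of 4 genes, led by Col1a2) summed to 185 and 1.41 CPM, the myeloid list (5 of 5, led by Lyz2) to 32.1 and 209 CPM and the plasmacytoid or dendritic list (4 of 4, led by H2-Ab1) to 74.8 and 291 CPM. The part of these cells in the levels was not tested.

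Ptcra was the exception among the tumor values, with 17.4 CPM (14.4 to 20.9) in cells with CD8 RNA of the library labelled Pdcd1fl/fl and 0.424 CPM (3 UMIs) in the library labelled Pdcd1 cKO. Over all cells of the former library, 114 of 121 Ptcra UMIs lay in 5 cells, and 78 lay in a single cell with 53729 UMIs. That cell had 1 UMI of Cd8b1, 0 of Cd8a, 2 of Cd3e, 171 of Pmel, 242 of Dct and 0 of Siglech, a marker of plasmacytoid dendritic cells. Without it, a choice made after seeing the data, the library held 43 Ptcra UMIs, or 4.61 CPM.

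Within the thymus, cells without CD8 RNA were compared with cells with CD8 RNA of the same library. In the library labelled Pdcd1 cKO the cells without CD8 RNA had more RNA of Notch3 (3.47-fold), Hes1 (2.89-fold), Ptcra, Cd24a and Dntt. In the library labelled Pdcd1fl/fl the same contrast stayed within a log2 ratio of 1 for each of the 9 measured members. Counted past 1, 5 of 9 measured members were higher in the former library, where 4.26% of 11325 genes were higher and 3.06% lower, and 0 of 9 in the latter, where 0.777% of 8625 genes were higher and 2.86% lower. No member was lower by that much in either library. Whether both libraries differ in this contrast was not tested.

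Dntt had 570 CPM (552 to 588) without and 278 CPM with CD8 RNA under the label Pdcd1 cKO, a log2 ratio of 1.04 (0.97 to 1.10), and 552 CPM (525 to 581) and 423 CPM under the label Pdcd1fl/fl, a ratio of 0.38 (0.28 to 0.49). Rag1 had 39.8 CPM (35.1 to 45.0) and 22.0 CPM under the label Pdcd1 cKO, a log2 ratio of 0.85 (0.60 to 1.10), and 37.7 CPM (30.7 to 45.7) and 33.4 CPM under the label Pdcd1fl/fl, a ratio of 0.17 (-0.22 to 0.56). The cells without CD8 RNA of both libraries were thus close for Dntt and Rag1, and the cells with CD8 RNA were further apart. Rag2 had 9 and 16 UMIs in the former library and 5 and 2 UMIs in the latter, too few for a ratio.

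Ptcra had 32.3 CPM (28.0 to 36.9) without and 13.5 CPM with CD8 RNA under the label Pdcd1 cKO, a log2 ratio of 1.26 (0.96 to 1.56), but 28.9 CPM (22.9 to 36.0) and 30.1 CPM under the label Pdcd1fl/fl, a ratio of -0.06 (-0.50 to 0.37). Notch3 had 55.6 CPM (49.96 to 61.60) and 16.0 CPM, a log2 ratio of 1.79 (1.54 to 2.05), and 28.9 CPM (22.9 to 36.0) and 20.8 CPM, a ratio of 0.47 (0.00 to 0.95), in the same order of labels. Notch1 had 201 CPM (190 to 212) and 105 CPM, a log2 ratio of 0.93 (0.82 to 1.04), and 159 CPM (145 to 175) and 146 CPM, a ratio of 0.12 (-0.07 to 0.31). Both receptors stood highest in cells without CD8 RNA of the library labelled Pdcd1 cKO, and for Notch1 and Ptcra the groups of the library labelled Pdcd1fl/fl overlapped within counting error.

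Hes1 had 651 CPM (632 to 671) without and 226 CPM with CD8 RNA under the label Pdcd1 cKO, a log2 ratio of 1.53 (1.46 to 1.60), and 526 CPM (499 to 554) and 368 CPM under the label Pdcd1fl/fl, a ratio of 0.52 (0.41 to 0.62). Dtx1 did not follow it: it had 22.8 CPM (19.3 to 26.8) and 24.7 CPM, a log2 ratio of -0.11 (-0.41 to 0.17), and 14.6 CPM (10.45 to 19.92) and 25.5 CPM, a ratio of -0.80 (-1.37 to -0.25). Cd24a had 424 CPM (408 to 440) and 194 CPM, a log2 ratio of 1.13 (1.05 to 1.21), and 343 CPM (322 to 366) and 238 CPM, a ratio of 0.53 (0.40 to 0.67). Bcl11b pointed in opposite directions, with 135 CPM (126 to 144) and 108 CPM, a log2 ratio of 0.32 (0.19 to 0.44), under the label Pdcd1 cKO and 96.5 CPM (85.2 to 108.9) and 120 CPM, a ratio of -0.31 (-0.54 to -0.09), under the label Pdcd1fl/fl.

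The median over all genes was 0.20 under the label Pdcd1 cKO and -0.01 under the label Pdcd1fl/fl, and the members' medians were 1.04 and 0.17. Scaling by the median of ratios took the 0.20 away and left 3 members past 1, Notch3 (1.59), Hes1 (1.33) and Ptcra (1.06). The share of all genes past 1 (4.26% higher) is given for the first scaling only. The sign of every measured member was kept under both other scalings in either library. With cells thinned, Ptcra (0.18) and Notch3 (-0.05) turned under the label Pdcd1fl/fl, each under the minimum of 50 UMIs. Without cycling cells Ptcra (1.21, also under the minimum) and Bcl11b (0.07) did so there, and Dtx1 under the label Pdcd1 cKO (0.05).

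Shares of cells with a UMI, counted after every cell had been thinned to 1000 UMIs but with the groups of the full counts, gave the same order for the abundant genes. For Dntt, 42.5% (38.0 to 47.0) of cells without and 22.2% (18.9 to 25.8) of cells with CD8 RNA had a UMI under the label Pdcd1fl/fl, and 35.2% (32.0 to 38.4) and 15.7% (14.01 to 17.48) under the label Pdcd1 cKO. Unthinned, these shares were 81.0%, 59.3%, 74.6% and 45.5%. The background, thinned splenic cells with CD8 RNA (median depth 1374 and 1686 UMIs before thinning), was 0.116% and 0.206%. Hes1 was read in 34.5% and 25.6% of thinned cells under the label Pdcd1fl/fl and in 38.0% and 13.5% under the label Pdcd1 cKO (unthinned 67.4%, 56.7%, 74.6% and 41.8%), against 0.232% and 0.335% in the spleen. Notch3 was read in 2.51% and 1.70%, and in 5.90% and 1.54%, of thinned cells (unthinned 14.02%, 10.2%, 26.9% and 8.50%), against 0.116% and 0.103%.

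For Ptcra the thinned shares were 2.30% and 2.55% under the label Pdcd1fl/fl and 3.86% and 0.913% under the label Pdcd1 cKO (unthinned 13.2%, 13.4%, 16.7% and 6.50%), against 0% and 0.0772% in the spleen. Rag1 was read in 4.39% and 2.72%, and in 5.33% and 2.40%, of thinned thymic cells (unthinned 16.3%, 15.3%, 17.4% and 10.2%), and in 0 of 863 and 0 of 3885 splenic cells. Dtx1 had thinned shares of 1.26% and 3.06%, and of 2.95% and 3.42%, in the thymus (unthinned 7.11%, 12.9%, 12.7% and 13.8%) and of 3.48% and 4.35% in the spleen. The splenic shares of Dtx1 were as high as the thymic ones, whereas those of the recombinase, pre-TCR, Notch3 and Hes1 genes were below 0.5% in every splenic group.

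Cells with RNA of dividing cells were unevenly spread over these groups. A UMI of Mki67 or Top2a, genes of proliferating cells, was read in 71.1% of cells without and 58.9% of cells with CD8 RNA under the label Pdcd1fl/fl, and in 57.7% and 43.4% under the label Pdcd1 cKO. Splenic cells with CD8 RNA had 1.85% and 2.99% as background. Thinned to 1000 UMIs, a step added after seeing the data, the thymic shares were 32.0% (27.8 to 36.4) and 25.6% (22.2 to 29.4), with overlapping intervals, and 26.5% (23.6 to 29.6) and 13.5% (12.0 to 15.2), against 1.27% and 1.60% in the spleen. The split used unthinned UMIs, so dividing cells in which neither gene was read may count among the others. Among cells without a UMI of either gene (138 without and 242 with CD8 RNA), the contrast appeared in the library labelled Pdcd1fl/fl too, with 4 of 7 measured members past 1 where 2.89% of 4321 genes were higher. Dntt was 595 against 271 CPM there, a log2 ratio of 1.14 (0.90 to 1.37), Hes1 659 against 263 CPM, a ratio of 1.32 (1.09 to 1.56), Cd24a 431 against 199 CPM, a ratio of 1.11 (0.83 to 1.39), and Notch3 52.4 against 21.4 CPM, a ratio of 1.29 (0.44 to 2.17). Ptcra, with 18 and 15 UMIs, was under the minimum, and its ratio was 1.21 (0.14 to 2.30).

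The library labelled Pdcd1 cKO showed larger ratios in the same cells (373 and 992), with 7 of 9 members past 1 where 7.49% of 8950 genes were higher. Hes1 reached 2.35 (2.24 to 2.47), Ptcra 2.21 (1.73 to 2.69), Notch3 2.20 (1.84 to 2.57), Dntt 2.04 (1.91 to 2.16), Cd24a 2.02 (1.88 to 2.15), Rag1 1.45 (1.07 to 1.82) and Notch1 1.31 (1.12 to 1.49) on the log2 scale. Bcl11b was 0.50 (0.30 to 0.69) and Dtx1 0.05 (-0.36 to 0.45). In cells with a UMI of Mki67 or Top2a, looked at alone after seeing the data, 0 of 9 members were past 1 under the label Pdcd1fl/fl (all genes 0.680% higher and 1.58% lower; Hes1 0.27, Dntt 0.17, Notch1 0.00) and 2 of 9 under the label Pdcd1 cKO (all genes 2.2% higher and 2.14% lower), Notch3 (1.54, 1.18 to 1.91) and Hes1 (1.02, 0.94 to 1.11). Among the same cells Cd24a was 0.35 and Notch3 0.17 under the label Pdcd1fl/fl, and Dntt was 0.52 and Cd24a 0.61 under the label Pdcd1 cKO. In both libraries the ratios of Hes1, Dntt, Cd24a and Notch3 were thus larger among cells without these UMIs than among cells with them. The difference was not tested, and for Notch3 the intervals overlapped in both libraries.

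**Figure D2:**
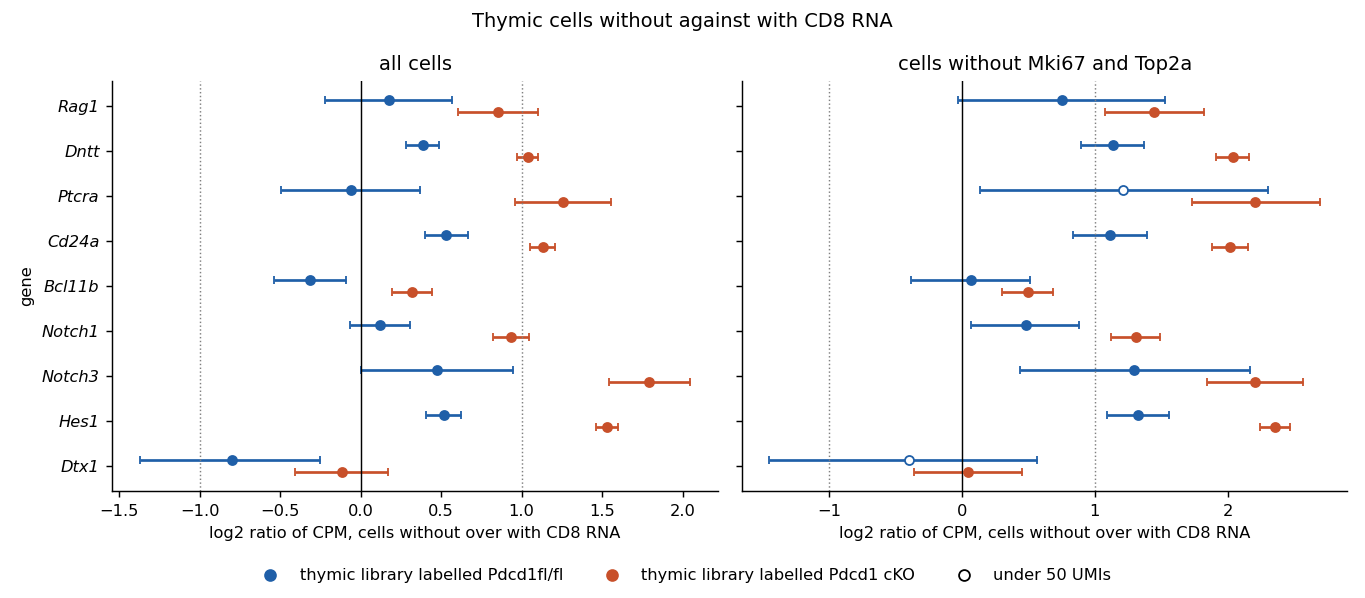
Log2 ratio of RNA level in thymic cells without over with CD8 RNA for 9 genes (Rag2 had too few UMIs), in all cells and in cells without Mki67 and Top2a UMIs, with exact conditional binomial 95% intervals (counting error only, 1 library per color); open points have under 50 UMIs and dotted lines mark -1 and 1. Hes1 moves from 0.52 to 1.32 under the label Pdcd1fl/fl and from 1.53 to 2.35 under the label Pdcd1 cKO, while Dtx1 lies near or below 0 in both panels.

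Levels were also followed over the number of CD8 UMIs in a cell, a division chosen after seeing the data. Under the label Pdcd1 cKO, Hes1 had 651, 466, 270, 148 and 104 CPM in cells with 0, 1, 2, 3 to 5 and 6 or more CD8 UMIs (882, 402, 245, 512 and 594 cells). Dntt had 570, 478, 327, 245 and 148 CPM and Notch3 55.6, 40.2, 14.3, 8.97 and 5.599 CPM over the same steps. Each of these genes was lower at every further step. For Notch3 the intervals of neighboring steps overlapped from 2 CD8 UMIs on (9.13 to 21.2, 6.10 to 12.7 and 3.62 to 8.27). Cd24a went from 424 to 99.9 CPM, Notch1 from 201 to 64.5 CPM, Ptcra from 32.3 to 7.61 CPM and Bcl11b from 135 to 95.4 CPM between the first and the last step. Rag1 had 39.8, 45.8, 24.4, 14.2 and 10.97 CPM, highest at 1 CD8 UMI within overlapping intervals, and Dtx1 was flat at 22.8, 25.5, 21.4, 24.3 and 25.8 CPM.

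Under the label Pdcd1fl/fl (478, 248, 113, 158 and 70 cells) Hes1 also went down with CD8 RNA, with 526, 484, 404, 290 and 177 CPM, and Cd24a went from 343 to 185 CPM. Dntt had 552, 471, 416, 338 and 451 CPM, lowest in cells with 3 to 5 CD8 UMIs. Rag1 (37.7 and 39.7 CPM) and Ptcra (28.9 and 38.0 CPM) were no lower in the last step than in the first, and Notch1 ended at 149 CPM against 159 CPM. Cells with at least 6 CD8 UMIs thus still held RNA of Rag1, Ptcra and Dntt in this library. Their summed levels were above those of the other (Rag1 39.7, 25.4 to 59.0, against 10.97, 8.12 to 14.5 CPM). Rag1 was read in 13 and Ptcra in 12 of these 70 cells, and 1 cell held 42 of 273 Dntt UMIs. In thinned cells the shares overlapped for Rag1 (2.86%, 0.348 to 9.94, against 1.18%, 0.475 to 2.41). They also overlapped for Ptcra (4.29%, 0.893 to 12.02, against 0.505%, 0.104 to 1.47). For Dntt they were 21.4% against 7.91%, with intervals apart. Median depth in this step was 5981.5 and 6309 UMIs, above all other steps, and the part of doublets was not tested.

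**Figure D3:**
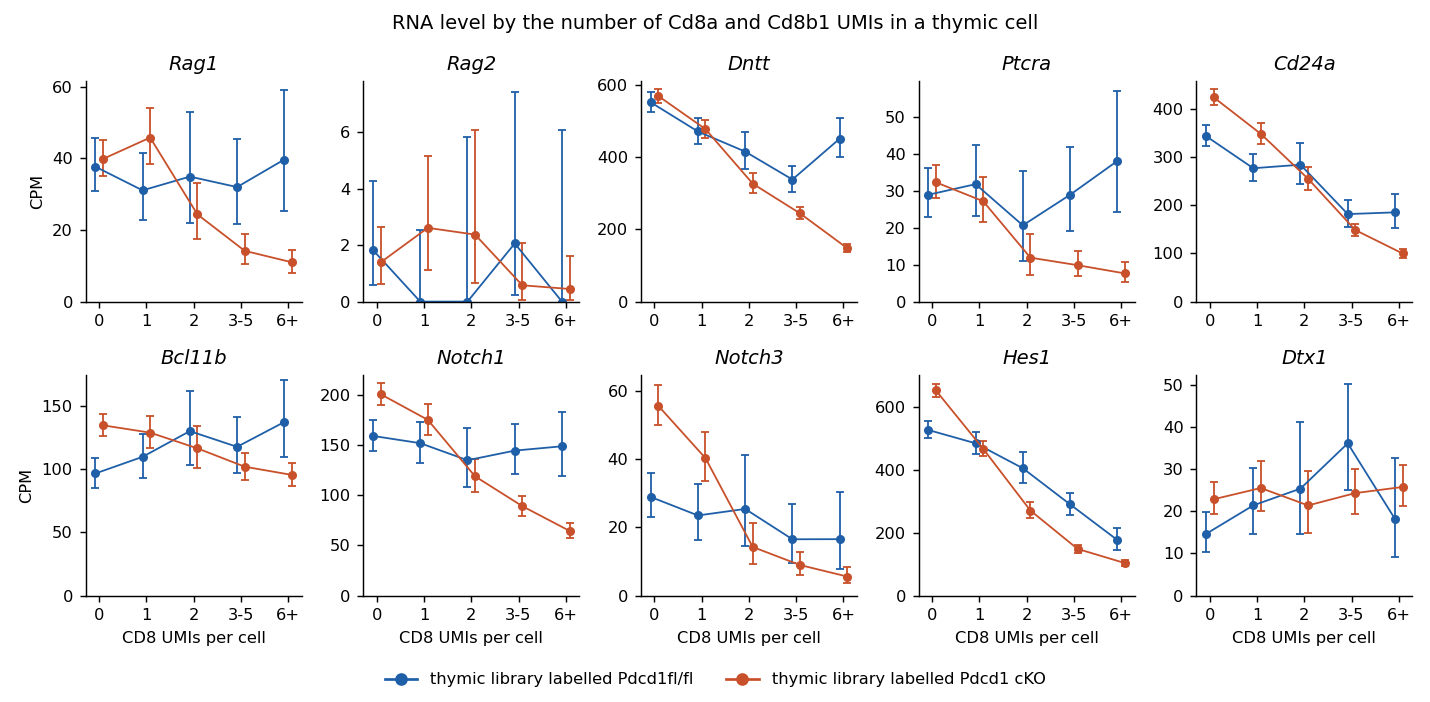
RNA level (CPM) of the 10 genes in thymic cells by the number of Cd8a and Cd8b1 UMIs, with exact Poisson 95% intervals (counting error only, 1 library per line). Under the label Pdcd1 cKO Dntt goes from 570 to 148 CPM and Hes1 from 651 to 104 CPM between 0 and at least 6 CD8 UMIs, while Dtx1 stays between 21.4 and 25.8 CPM.

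Between the labelled genotypes, no measured member passed a log2 ratio of 1 in thymic cells without CD8 RNA, and Notch3 came closest. Set as the library labelled Pdcd1 cKO over the library labelled Pdcd1fl/fl, 0 of 9 measured members were past a log2 ratio of 1 in either direction, where 7.08% of 9751 genes were higher and 4.11% lower. All 9 ratios were above 0, with Dntt turning to -0.01 under the median of ratios, and among cells with Mki67 or Top2a UMIs Ptcra (-0.22), Rag1 (-0.16) and Dntt (-0.03) were below 0. Their median over all cells was 0.31 beside 0.05 for all genes. Notch3 had the highest, 55.6 against 28.9 CPM, a log2 ratio of 0.94 (0.59 to 1.31), followed by Dtx1 with 22.8 against 14.6 CPM and 0.64 (0.13 to 1.19) and Bcl11b with 135 against 96.5 CPM and 0.48 (0.28 to 0.68). Dntt (0.05), Rag1 (0.08) and Ptcra (0.16) lay lowest. Notch3 passed 1 in thinned cells (1.20), with the total taken without mitochondrial, ribosomal protein and Malat1 counts (1.08) and without the 5% of cells with the most UMIs (1.12), and Dtx1 did so in thinned cells (1.15), where 10.8% of all genes were past 1 in either direction and Dntt, Ptcra, Notch1 and Hes1 turned to -0.31, -0.10, -0.10 and -0.12.

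In thymic cells with CD8 RNA 1 member, Ptcra, was lower under the label Pdcd1 cKO past a log2 ratio of -1. It had 13.5 against 30.1 CPM, a log2 ratio of -1.16 (-1.51 to -0.80), and was alone among 9 measured members, where 5.1% of 10827 genes were lower and 3.68% higher. Hes1 followed with 226 against 368 CPM and -0.71 (-0.80 to -0.61), Dntt with 278 against 423 CPM and -0.61 (-0.69 to -0.52), Rag1 with 22.0 against 33.4 CPM and -0.60 (-0.91 to -0.28), and Notch1 with 105 against 146 CPM and -0.48 (-0.62 to -0.33). Notch3 (-0.38, -0.76 to 0.02), Cd24a (-0.29, -0.41 to -0.18), Bcl11b (-0.15, -0.31 to 0.01) and Dtx1 (-0.04, -0.38 to 0.31) differed least, and the intervals of Notch3, Bcl11b and Dtx1 reached over 0. All 9 ratios were below 0 with a median of -0.48, but the median of all genes was -0.17, and Bcl11b and Dtx1 were above 0 under both other scalings (0.05 and 0.16, and 0.02 and 0.12). Under these scalings Ptcra lay at -0.96 and -0.99, just short of -1.

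These genotype ratios in cells with CD8 RNA depended on which cells were taken. Among cells without Mki67 and Top2a UMIs Ptcra was -0.44 (-1.28 to 0.48), and among cells with them -1.21 (-1.62 to -0.80). With only cells of at least 2 CD8 UMIs, Ptcra (-1.66), Rag1 (-1.27) and Notch3 (-1.19) were past -1. The median of all genes was -0.22 there and -0.17 with the first setting. The share of all genes past -1 (5.1% lower) is given for the first setting only. Rag1 turned to 0.26 in thinned cells, under the minimum of 50 UMIs, and Dtx1 to 0.05 without cycling cells. Cycling shares (58.9% and 43.4%) and the level of CD8 RNA differed between these groups, with Cd8b1 at 326 and 440 CPM and Cd8a at 146 and 216 CPM, and their part in the ratios was not tested.

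Cells of the thymus were then divided by genes that are not members. Cycling cells (Mki67 or Top2a) made up 64.4% and 48.2% of the libraries labelled Pdcd1fl/fl and Pdcd1 cKO. The others were gated, without CD8 RNA, by Il2ra (CD25, on cells around the pre-TCR checkpoint; 52 and 184 cells), then Trdc (42 and 68), then the rest (44 and 121), and, with CD8 RNA, by Cd4 (0 and 24), then Ccr7 (a receptor of mature thymocytes; 148 and 694), then the rest (94 and 274). Median UMIs of the gates ran from 3286 to 5418 and from 4261.5 to 5945.5.

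Hes1 stood clearly highest in cells with Il2ra, at 986 CPM (854 to 1133) and 1065 CPM (1007 to 1126), and lowest in cells with Ccr7, at 181 CPM (148 to 218) and 87.6 CPM (78.7 to 97.3), under the labels Pdcd1fl/fl and Pdcd1 cKO. Cells with Trdc had 459 and 798 CPM, and cycling cells 447 and 374 CPM. Its order under the label Pdcd1 cKO was Il2ra, Trdc, the rest without CD8 RNA, the rest with CD8 RNA, cycling, Cd4 and Ccr7. There the intervals overlapped among the rest without, the rest with CD8 RNA and the cycling cells, and between Cd4 and Ccr7.

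Dntt had 794 CPM (676 to 926) and 774 CPM (724 to 825) in cells with Il2ra, 506 and 754 CPM with Trdc, 510 and 430 CPM in cycling cells and 196 CPM (162 to 234) and 98.6 CPM (89.1 to 108.8) with Ccr7. Cd24a had 602 and 670 CPM with Il2ra and 169 and 83.4 CPM with Ccr7. Notch3 had 74.0 CPM (41.4 to 122.0) and 102 CPM (84.9 to 122.2) with Il2ra, 35.3 and 57.8 CPM with Trdc, 21.8 and 24.6 CPM in cycling cells and 23.2 and 8.74 CPM with Ccr7. These genes shared a high point in cells with Il2ra without CD8 RNA and, under the label Pdcd1 cKO, a low one in cells with Ccr7 or Cd4, with Notch3 at 0 UMIs in the 24 cells of the Cd4 gate. The interval of the top gate overlapped that of the next for Notch3 under both labels, for Dntt under the label Pdcd1 cKO and for Cd24a under the label Pdcd1fl/fl. For Notch3 under the label Pdcd1fl/fl all neighbors in the order overlapped.

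Ptcra had 59.2 CPM (30.6 to 103.3) and 62.6 CPM (49.1 to 78.5) with Il2ra, 23.5 CPM (4 UMIs) and 63.3 CPM (40.1 to 94.9) with Trdc, and 9.95 CPM (3.65 to 21.65) and 5.99 CPM (3.84 to 8.92) with Ccr7. Rag1 differed in its high point between the labels, with 76.4 CPM (40.7 to 130.7) in cells with Trdc under the label Pdcd1fl/fl and 76.9 CPM (61.9 to 94.5) in cells with Il2ra under the label Pdcd1 cKO. All neighbors in the order of Rag1 overlapped under the label Pdcd1fl/fl, and under the label Pdcd1 cKO a gap lay only between cycling cells (25.5 CPM) and cells with Ccr7 (9.99 CPM). In the cells with CD8 RNA outside the Cd4 and Ccr7 gates Rag1 had 39.9 and 57.4 CPM. Rag2 had its highest level in the same gate under the label Pdcd1 cKO (6 UMIs, 4.36 CPM), with all neighbors in its order overlapping. More of its UMIs there lay in cycling cells (4 without and 10 with CD8 RNA).

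Notch1 ranged from 117 to 212 CPM over the gates of the library labelled Pdcd1fl/fl and from 61.7 to 251 CPM over those of the library labelled Pdcd1 cKO, high with Il2ra and, in the latter, with Trdc (248 CPM). Bcl11b ranged from 86.8 to 158 CPM and from 102 to 175 CPM, and no neighbors in its order were separated beyond counting error. Dtx1 was highest with Ccr7 under the label Pdcd1fl/fl (39.8 CPM, 25.5 to 59.2) and with Il2ra under the label Pdcd1 cKO (40.6 CPM, 29.9 to 53.8). It was lowest with Trdc (5.88 and 16.5 CPM) and also low in cycling cells (18.0 and 17.8 CPM). Its neighbors in the order overlapped in both libraries.

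**Figure D4:**
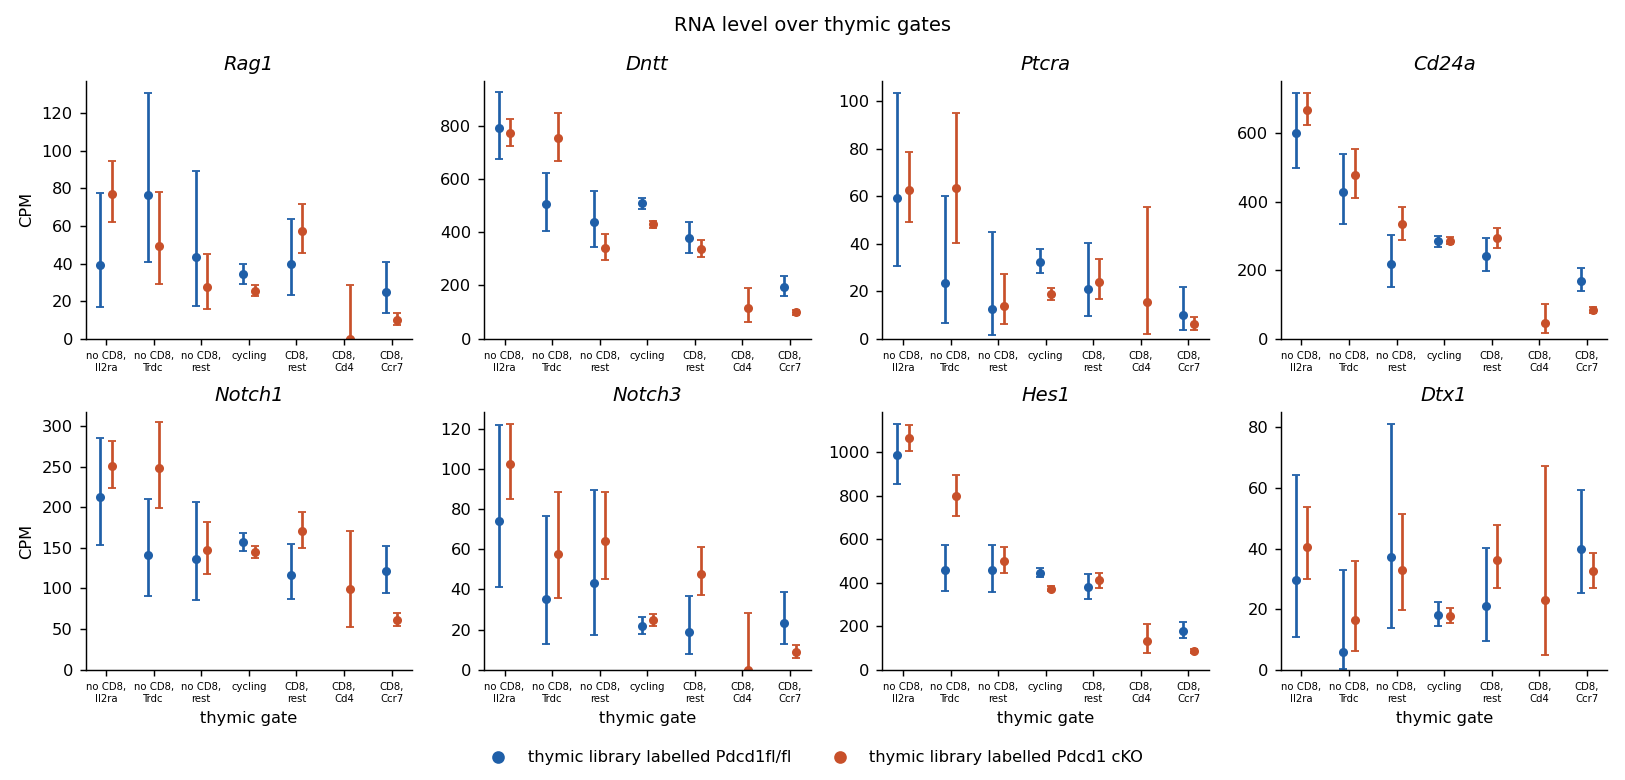
RNA level (CPM) of 8 of the genes over the thymic gates, from cells without CD8 RNA to cells with CD8 RNA and Ccr7. Intervals are exact Poisson 95% intervals (counting error only, 1 library per color). The Cd4 gate was empty under the label Pdcd1fl/fl. Hes1 (986 and 1065 CPM) is highest in cells with Il2ra, clear of the next gate, and Dntt, Cd24a and Notch3 have their highest point there with intervals that overlap the next gate in at least 1 library.

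Over the 13 gate values that held cells (6 and 7 gates, which share libraries and depth), the members most alike by Pearson r of log2(CPM + 1) were Dntt and Hes1 at 0.97, with Dntt and Cd24a (0.94), Notch1 and Hes1 (0.93) and Cd24a and Hes1 (0.93) close behind. Dtx1 ran from -0.22 with Dntt, over -0.09 with Hes1, to 0.30 with Rag2 and 0.43 with Bcl11b. Among 5839 genes with at least 500 UMIs, those most like Rag1 were Nebl (0.97), Trgc1 (0.97) and Gm525 (0.96). Without the thin Cd4 gate, left out after seeing the data, these were 0.85, 0.83 and 0.83 over 12 values. Dntt was most like Hes1, Ptprs (0.97) and Cdv3 (0.97), Ptcra most like Casp6 (0.94), Rnf4 (0.91) and Ndrg1 (0.91), and Notch3 most like Cdkn1a (0.96), Mprip (0.96) and Myl10 (0.95). Without the Cd4 gate the values of Notch3 were 0.92, 0.85 and 0.90, and those of Dntt and Ptcra were all above 0.91. Among members Cd24a and Hes1 (0.96) came next after Dntt and Hes1 (0.97). These values describe 2 libraries and carry no test.

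Pairs of members were also counted in the same thinned thymic cells. Rag1 and Rag2 were never read together, in 0 of 37 and 0 of 89 cells with Rag1, which is not informative at the low counts of Rag2. Under the label Pdcd1 cKO, Dntt was read in 43.8% (33.3 to 54.8) of cells with Rag1 and in 21.5% (19.9 to 23.1) of cells without it. Under the label Pdcd1fl/fl the shares were 32.4% (18.0 to 49.8, over 37 cells) and 31.3% (28.4 to 34.2), with overlapping intervals. With and without Rag1, Ptcra was read in 2.70% and 2.43% of cells under the label Pdcd1fl/fl and in 2.25% and 1.89% under the label Pdcd1 cKO. It was read in 4.49% (2.54 to 7.30) against 1.501% (0.752 to 2.67) and in 3.59% (2.24 to 5.44) against 1.41% (0.949 to 2.02) of cells with and without Dntt, in the order Pdcd1fl/fl and Pdcd1 cKO.

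Hes1 was read in 38.1% (30.7 to 45.9) of cells with and 28.0% (25.1 to 31.1) of cells without Notch1 under the label Pdcd1fl/fl, and in 39.8% (34.4 to 45.3) and 19.2% (17.6 to 20.8) under the label Pdcd1 cKO. Notch3 was read in 2.38% and 2.00%, and in 7.34% (4.76 to 10.72) and 2.38% (1.80 to 3.09), of cells with and without Notch1. Ptcra was read in 7.60% (2.84 to 15.80) of cells with and 1.72% (1.25 to 2.30) of cells without Notch3 under the label Pdcd1 cKO, and Dtx1 in 6.33% (2.09 to 14.16) and 3.17% (2.52 to 3.92). Under the label Pdcd1fl/fl only 22 cells had Notch3, of which 1 had Ptcra and 3 had Dtx1. Such shares mix all stages of the thymic cells, and depth was equal by thinning.

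Partner genes were followed in 4 lists. End joining genes, which reseal the breaks made by the recombinase (13 genes), lay near all genes in the contrast by CD8 RNA: 0 of 10 measured were past 1 under the label Pdcd1fl/fl (all genes 0.777%; median -0.15, all genes -0.01) and 1 of 12 under the label Pdcd1 cKO (all genes 4.26%; median 0.28, all genes 0.20), the ligase gene Lig4 with 35.7 against 16.8 CPM (1.08, 0.81 to 1.36). The lowest were Atm, the kinase of break signaling, at -0.79 and Polm, a polymerase related to TdT, at -0.76. Lig4 was also the highest of the list in thymus over spleen, with 15.6 against 0.724 CPM (4.43, 1.89 to 9.76) and 16.8 against 1.78 CPM (3.24, 2.44 to 4.18), where 4 of 10 and 4 of 12 genes were higher (all genes 27.2% and 12.3%), 0 lower (all genes 6.95% and 9.62%), and the medians were 0.77 and 0.39 (all genes 0.42 and 0.02). There the lowest were Xrcc4 (-0.16) and Paxx (-0.58). Hmgb2, a cofactor of the recombinase that also marks dividing cells, was most abundant with 2123 against 322 CPM and 1429 against 294 CPM. Between the genotypes 1 of 11 was higher, Dclre1c (1.31), and 0 lower in cells without CD8 RNA (all genes 7.08% and 4.11%). In cells with CD8 RNA 0 of 12 were higher and 0 lower (all genes 3.68% and 5.1%).

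The pre-TCR partners and signaling genes (13 genes) had 0 of 12 higher and 0 lower in cells without CD8 RNA under the label Pdcd1fl/fl (all genes 0.777% and 2.86%), and 1 of 13 higher and 1 lower under the label Pdcd1 cKO (all genes 4.26% and 3.06%), with medians of -0.14 and -0.05 (all genes -0.01 and 0.20). Syk, a kinase of pre-TCR signaling, was highest under the label Pdcd1 cKO at 12.7 against 3.87 CPM (1.71, 1.18 to 2.25). Fyn, a kinase of T cell receptor signaling, was lowest there at 63.4 against 131 CPM (-1.05, -1.21 to -0.89). Under the label Pdcd1fl/fl Fyn was also lowest, at 38.8 against 76.9 CPM (-0.99, -1.32 to -0.66), and Cd3g was highest (0.49). Most abundant was Trbc2, with 1946 and 2058 CPM and with 1653 and 1766 CPM. Between the genotypes 1 of 13 was higher, Syk (1.11), and 0 lower in cells without CD8 RNA (all genes 7.08% and 4.11%). In cells with CD8 RNA 0 of 13 were higher and 0 lower (all genes 3.68% and 5.1%). In thymus over spleen 2 of 12 were higher and 1 lower (all genes 27.2% and 6.95%; medians 0.18 and 0.42), and 0 of 13 higher and 1 lower (all genes 12.3% and 9.62%; medians -0.31 and 0.02), with Trbc1 highest (1.28 and 0.99) and Fyn (-1.04) and Zap70 (-1.04) lowest.

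Among the other Notch pathway genes (38 genes) 0 of 22 measured were higher and 1 lower in cells without CD8 RNA under the label Pdcd1fl/fl (all genes 0.777% and 2.86%; medians -0.29 and -0.01), with the coactivator genes Maml3 highest (0.29) and Maml2 lowest (-1.04). Under the label Pdcd1 cKO 1 of 27 was higher and 1 lower (all genes 4.26% and 3.06%; medians 0.22 and 0.20), namely Aph1c of gamma-secretase, with 4.48 against 1.66 CPM (1.43, 0.57 to 2.32), and Lfng, whose enzyme tunes the binding of Notch ligands, with 6.94 against 17.4 CPM (-1.33, -1.83 to -0.86). Between the genotypes, 5 of 25 were higher and 0 lower in cells without CD8 RNA (all genes 7.08% and 4.11%; medians 0.61 and 0.05), led by Nrarp, a feedback inhibitor of Notch, with 10.03 against 2.19 CPM (65 and 6 UMIs; 2.19, 0.99 to 3.69), and 1 of 26 was higher and 0 lower in cells with CD8 RNA (all genes 3.68% and 5.1%; medians 0.00 and -0.17), again Nrarp, with 10.3 against 4.92 CPM (1.07, 0.35 to 1.87). Against the spleen 2 of 23 were higher and 3 lower (all genes 27.2% and 6.95%; medians 0.09 and 0.42), with Dtx3 highest (2.24) and Nrarp lowest (4.92 against 59.4 CPM, -3.59), and 1 of 26 higher and 4 lower (all genes 12.3% and 9.62%; medians -0.27 and 0.02), with Maml3 highest (1.68) and Dtx4 lowest (-1.83). Psenen, also of gamma-secretase, was the most abundant in both (177 against 230.3 CPM and 121.5 against 254 CPM).

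The T lineage and early thymocyte factors (28 genes) split in the contrast by CD8 RNA. Under the label Pdcd1 cKO 3 of 24 were higher, led by Mef2c, a factor of early progenitors, at 15.9 against 4.03 CPM (1.98, 1.48 to 2.49), and 4 were lower, led by Cd2, a coreceptor gained in development, at 45.2 against 183 CPM (-2.02, -2.20 to -1.84), where 4.26% of all genes were higher and 3.06% lower, with a median of 0.05 (all genes 0.20). Under the label Pdcd1fl/fl 0 of 20 were higher and 3 lower (all genes 0.777% and 2.86%; medians -0.26 and -0.01), with Myb highest (0.23) and Cd44 lowest (-1.39). Cd44, a gene of progenitors and of memory T cells, was highest between the genotypes in cells without CD8 RNA, with 23.9 against 5.85 CPM (2.03, 1.29 to 2.87), where 5 of 23 were higher and 0 lower (all genes 7.08% and 4.11%), and Runx3, a factor of CD8 lineage choice, in cells with CD8 RNA, with 55.8 against 22.7 CPM (1.30, 0.97 to 1.64), where 3 of 24 were higher and 0 lower (all genes 3.68% and 5.1%). Medians were 0.34 and 0.23 beside 0.05 and -0.17 for all genes. Tcf7 was the lowest in both (-0.60 and -0.68). In thymus over spleen 5 of 20 were higher and 5 lower (all genes 27.2% and 6.95%), and 2 of 23 higher and 4 lower (all genes 12.3% and 9.62%), with medians of -0.01 and -0.10 (all genes 0.42 and 0.02), Myb highest (2.54 and 2.49) and Cd44 lowest (-2.42 and -2.06).

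The 250 bases before the RefSeq start of each member were searched in the RefSeq promoter table (GRCm38.p6), in which 8 of the 10 members were matched, with Cd24a and Hes1 not among them. The motifs were TGGGAA, the core bound by the Notch partner RBPJ, and CAGNTG, an E box of the kind bound by E proteins of lymphocytes. Each was sought on both strands. TGGGAA occurred in 21.6% and CAGNTG in 44.8% of the 32851 promoters, and at least 2 matches in 2.77% and 13.2%. Ptcra had 2 matches of each (chr17:47074639-47074888, minus strand, GRCm39), in a window that lies within the GENCODE span of the gene given above, with 193 bases of annotated untranslated region. Rag1 had 1 of TGGGAA and 3 of CAGNTG, while Rag2, Dntt, Notch1, Notch3, Dtx1 and Bcl11b had none of either in this window. Of these members, Rag1 and Ptcra had both motifs. The bases of Rag1 alone are shown, since its window, unlike that of Ptcra, held no annotated untranslated region. They were found once in GRCm39, at chr2:101479878-101480127 on the minus strand, just upstream of the gene, where an exon of Gm74543 on the other strand overlaps them, and capitals mark the motif letters. A match describes letters only, and binding was not measured.
Rag1: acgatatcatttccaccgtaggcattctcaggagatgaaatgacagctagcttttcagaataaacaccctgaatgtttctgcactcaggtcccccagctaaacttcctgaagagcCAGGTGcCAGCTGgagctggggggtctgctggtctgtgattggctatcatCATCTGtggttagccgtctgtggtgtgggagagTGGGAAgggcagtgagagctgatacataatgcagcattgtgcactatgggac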

How the data were processed

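The authors counted reads against GRCm39 and deposited raw UMI counts per gene and called barcode, without normalization, and the submitters' processing notes also name Seurat 4.3.0. The annotation release behind the counts is not given in the sources used here. A cell was kept with 500 or more genes, 1000 or more UMIs and no more than 20% of its counts from mitochondrial genes. CPM are the summed counts of a group over its total, and intervals were exact Poisson for levels, conditional binomial for ratios and Clopper-Pearson for shares. A ratio was measured with at least 50 UMIs in both groups together, called past a log2 ratio of 1, and given against a floor of 3 counts where a group was at 0. Genes named include the members, Pdcd1, the gate genes and the 3 genes most like Rag1, Dntt, Ptcra and Notch3. From each list, genes that were highest, lowest or most abundant are named, though not in every comparison. Marker genes of other cell types and genes that overlap the members are named as well. Members and lists were chosen with earlier results of these data known. The alternatives were 10 planned settings of cell filter, CD8 split, depth, scaling, minimum, cycling cells and largest cells. The ratio step was tested on simulated gene sums with known changes and counting error alone. These sums had no clustering of UMIs in single cells, so the test cannot speak for that. Python 3.11.15, numpy 2.4.6, scipy 1.17.1, pandas 2.3.3 and matplotlib 3.10.9 were used, with GENCODE M39 for coordinates.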

Additional observations from a re-analysis of the deposited data

Results flagged for a closer look

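For 4 genes the same contrast gave opposite signs in both groups compared, with each counting interval apart from 0. The contrast of thymic cells without over with CD8 RNA was -0.31 for Bcl11b under the label Pdcd1fl/fl but 0.32 under the label Pdcd1 cKO on the log2 scale. The contrast of the library labelled Pdcd1 cKO over the library labelled Pdcd1fl/fl was 0.30 in cells without and -0.29 in cells with CD8 RNA for Cd24a, 0.33 and -0.48 for Notch1, and 0.31 and -0.71 for Hes1. None of these differences was tested, since each group was 1 library, and both contrasts use the same 4 groups of cells. In thinned cells the ratios of Notch1 and Hes1 in cells without CD8 RNA were -0.10 and -0.12, and without cycling cells Bcl11b was 0.07 under the label Pdcd1fl/fl.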

How the results depend on the processing

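Under planned settings no ratio that had been past 1 or -1 changed sign. Of 60 counts of members past 1, 47 were equal to the first count or within a factor of 1.5 of it, and of 568 single ratios 435 lay within their first counting interval. Members higher in cells without CD8 RNA, 0 in the library labelled Pdcd1fl/fl, became 4 without cycling cells and 1 with cells of at least 6 CD8 UMIs (added after seeing the data), and 5 in the library labelled Pdcd1 cKO became 3 with the median of ratios and 2 in cycling cells alone (added after seeing the data). Between the labelled genotypes, 0 past 1 in cells without CD8 RNA became 2 in thinned cells, 1 with the total without mitochondrial, ribosomal protein and Malat1 counts and 1 without the 5% of cells with the most UMIs, and 1 in cells with CD8 RNA became 3 with at least 2 CD8 UMIs and 0 with either other scaling and without cycling cells. In thymus over spleen, 7 under the label Pdcd1fl/fl became 3 in thinned cells, 4 with a minimum of 200 UMIs and 4 without cycling cells, and 6 under the label Pdcd1 cKO became 3 in thinned cells. In these last 4 fewer members were measured (4, 5, 6 and 6), and elsewhere the cause was not tested. Counts of members under other settings stand here without the share of all genes. Where that share is not given above, they are not set against the other genes. Members measured with the first setting changed sign in 4 of 87, 1 of 90, 5 of 89, 8 of 90, 2 of 86 and 0 of 89 ratios of the 6 comparisons in turn. No paired analysis was possible because each group held 1 library and no result came from a test. Rag2 had at most 16 UMIs in a thymic group, too few for a ratio.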
